A study of Homo sapiens with 4 samples.

Results

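The transcripts described here encode the energy sensor AMPK, the kinase complex mTORC1 and the TSC complex that restrains it, in the human glioma line U87, an established cell line. Rows of the deposited gene count table whose symbol was PRKAA1, PRKAA2, PRKAB1, PRKAB2, PRKAG1, PRKAG2, MTOR, RPTOR, TSC1 or TSC2 were taken, which gave 10 genes of 57820 rows, each symbol occurring in 1 row. The groups were cells with a short hairpin RNA against GLUD1, the gene of mitochondrial glutamate dehydrogenase, labelled shGlud1, and cells with a control hairpin, labelled shNT, with 2 libraries each. Low glucose for 6 h was common to all 4 libraries, so no group shows these genes in ordinary glucose. Neither the hairpin sequences nor the number of hairpins or clones is given in the labels, and they do not state whether replicate libraries stem from separate cultures. The p-values therefore measure only how far these libraries differ, a spread that may be technical.

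AMPK is a trimer of a catalytic alpha subunit, a scaffolding beta subunit that can bind glycogen, and a regulatory gamma subunit that senses adenine nucleotides. It is switched on when cellular energy falls. mTORC1, built around the kinase MTOR and the scaffold RPTOR (raptor), drives protein synthesis and growth when amino acids and growth factors are present. TSC1 and TSC2 form a complex that turns off the GTPase RHEB, the direct activator of mTORC1, and active AMPK restrains mTORC1 by phosphorylating TSC2 and raptor. These steps work through proteins and phosphorylation, which RNA counts do not measure.

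The windows before the start sites of 4 of these genes are shown because MTOR and TSC1 rose, PRKAB1 fell, and TSC2, the binding partner of TSC1, was not called. They are RefSeq sequences on GRCh38.p14, each the 250 bases before an annotated start, 5′ to 3′ on the strand of the gene. Capitals mark matches, on both strands, to CCAAT (the CCAAT box), CACGTG (the E-box core), GAANNTTC (a core of the heat shock element) and TGATGNAA (a core of the ATF4 composite element).
MTOR, chr1:11262552-11262801, reverse strand: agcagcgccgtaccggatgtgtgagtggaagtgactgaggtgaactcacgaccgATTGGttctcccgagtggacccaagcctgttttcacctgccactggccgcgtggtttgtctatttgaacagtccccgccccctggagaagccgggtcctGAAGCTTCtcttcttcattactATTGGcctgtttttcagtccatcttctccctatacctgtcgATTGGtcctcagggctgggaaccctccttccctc
TSC1, chr9:132944617-132944866, reverse strand: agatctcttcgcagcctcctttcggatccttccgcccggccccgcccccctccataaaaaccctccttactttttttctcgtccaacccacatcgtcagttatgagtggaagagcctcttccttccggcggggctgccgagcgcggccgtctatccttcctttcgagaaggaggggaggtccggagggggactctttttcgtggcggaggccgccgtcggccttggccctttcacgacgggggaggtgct
PRKAB1, chr12:119667883-119668132, forward strand: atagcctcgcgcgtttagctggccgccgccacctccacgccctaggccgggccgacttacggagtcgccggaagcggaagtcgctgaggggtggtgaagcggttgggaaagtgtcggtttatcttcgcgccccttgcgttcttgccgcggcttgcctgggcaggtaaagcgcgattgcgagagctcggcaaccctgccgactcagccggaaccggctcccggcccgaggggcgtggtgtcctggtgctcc
TSC2, chr16:2047735-2047984, forward strand: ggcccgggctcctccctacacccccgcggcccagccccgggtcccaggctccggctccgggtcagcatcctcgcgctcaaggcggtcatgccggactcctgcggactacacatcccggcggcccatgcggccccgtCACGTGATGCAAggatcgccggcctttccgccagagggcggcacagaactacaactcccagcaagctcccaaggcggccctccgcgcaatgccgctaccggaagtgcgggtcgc
The MTOR window held CCAAT 3 times, with first bases 196, 75 and 34 bases before the start, and GAAGCTTC at 97 bases. In the TSC2 window CACGTG began 114 bases before the start and overlapped TGATGCAA, which began at 110 bases. The TSC1 and PRKAB1 windows held none of these letters. Among 35116 RefSeq windows of this length, 32.0% held CCAAT, 6.34% CACGTG, 5.78% GAANNTTC and 3.14% TGATGNAA. All 10 genes had a window, 15 in all, since PRKAG2 has 5 annotated starts and TSC2 has 2. CCAAT occurred in windows of 3 of the 10 genes, MTOR, PRKAB2 and PRKAG2, and each of the other motifs in those of 1 gene. These are counts of genes and the percentages above are of windows, so they are not like for like. The matches of PRKAG2 and of TSC2 each lay in a single window. A match describes letters in this window and not a site in use.

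The deposited values are expected counts, read numbers per gene estimated by the authors that need not be whole, and their totals were 17407148.85 and 18537314.19 in the shGlud1 libraries and 16546849.12 and 18118503.14 in the shNT libraries. Levels are given as CPM, the usual depth-scaled count, computed with TMM factors (which balance the libraries on the bulk of their genes), with means ± SD over the 2 libraries of a group. A log2 fold change is shGlud1 over shNT and is given with its standard error (SE). A gene was called changed when its adjusted p in edgeR's quasi-likelihood test was under 0.05. GLUD1 had 680.4 and 1025.82 expected counts in the shGlud1 libraries and 1065.81 and 1170.81 in the shNT libraries, or 39.2 ± 7.45 CPM and 77.2 ± 1.10 CPM, a log2 fold change of -0.98 (SE 0.13, adjusted p = 1.26e-12). The size of that fall depended on the scaling, at -0.45 by total counts (adjusted p = 0.00296) and -0.50 with a trend on the median transcript length removed (adjusted p = 0.000484). By total counts GLUD1 stood at 39.1 and 55.3 CPM in the shGlud1 libraries and 64.4 and 64.6 CPM in the shNT libraries. Of 8 glioma or mesenchymal markers 6 were above 1 CPM in every library, among them VIM and CD44, while SOX2 had 0 counts and GFAP was at most 0.392 CPM. CDKN2A, which is deleted in U87 cells, had 0 counts in all 4 libraries. Of 15 markers of leukocytes, epithelium, endothelium, neurons and oligodendrocytes, 4 were above 1 CPM in every library, CD68, SYT1, SNAP25 and MBP. PTPRC was at most 0.0732 CPM and EPCAM at most 0.522 CPM. The summed level of the 4 leukocyte markers, nearly all from CD68, was 290 and 275 CPM in the shGlud1 libraries and 398 and 356 CPM in the shNT libraries. The neuron markers summed to 7.64 and 8.58 CPM in the shGlud1 libraries and 5.78 and 5.23 CPM in the shNT libraries. Of the oligodendrocyte markers MBP was at 8.19 and 10.1 CPM in the shGlud1 libraries and 4.83 and 3.79 CPM in the shNT libraries, while MOG had 0 counts. Epithelial markers summed to 0.25 and 0.216 CPM in the shGlud1 libraries and 0.805 and 0.718 CPM in the shNT libraries, and endothelial markers to 0.5 and 0.52 CPM in the shGlud1 libraries and 0.659 and 0.587 CPM in the shNT libraries. The 8 glioma or mesenchymal markers summed to 6440 and 6990 CPM in the shGlud1 libraries and 4150 and 3850 CPM in the shNT libraries. The part of such differences in the results was not tested. A count of 0 in these libraries allows up to 3 counts, at most 0.181 CPM by total counts, by counting error alone.

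Transcripts of MTOR, RPTOR, TSC1 and both catalytic AMPK subunits were higher in the shGlud1 libraries, those of PRKAB1 and PRKAG1 were lower, and PRKAB2, PRKAG2 and TSC2 were not called. All 10 genes passed the filter on low counts. Thus 5 rose and 2 fell, where 61.0% of the 14616 genes tested were called, 31.9% as risen and 29.1% as fallen. The share of these genes that changed was therefore near that of the transcriptome, and what follows concerns the single genes. Their median log2 fold change was 0.48, and that of all genes tested 0.06. In 8 of the 10 genes the groups did not overlap in CPM, 6 with shGlud1 above and 2 with shGlud1 below, against 81.0% of all genes tested, 42.8% with shGlud1 above and 38.3% below. From bulk RNA a change in each cell and a change in a fraction of the cells cannot be told apart.

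**Figure D1:**
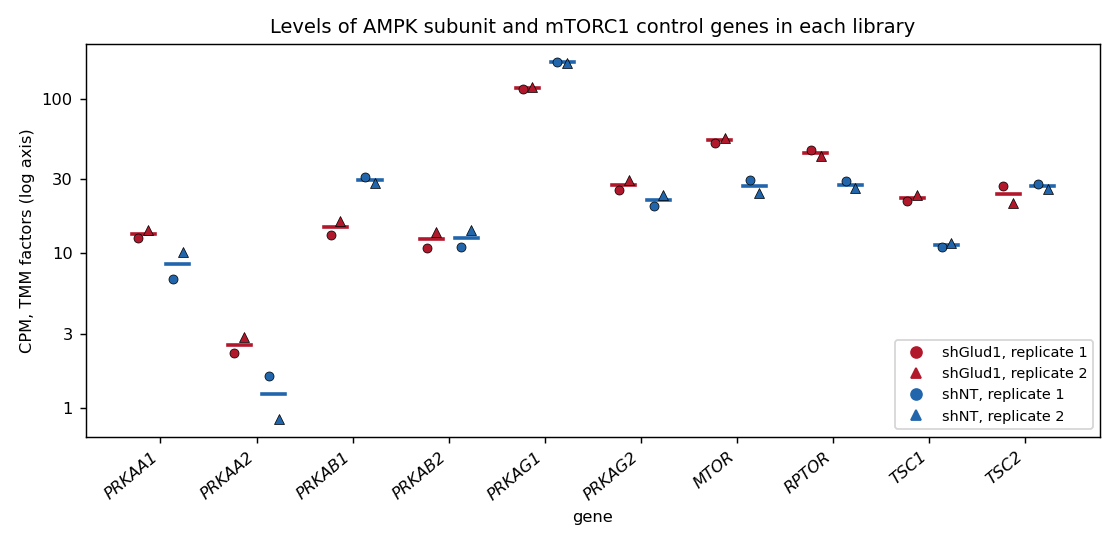
CPM with TMM factors (log axis) of the 10 genes in each library, shGlud1 in red and shNT in blue, with circles for replicate 1, triangles for replicate 2 and bars for the group mean. MTOR, RPTOR, TSC1 and PRKAA1 lie higher in both shGlud1 libraries, PRKAB1 and PRKAG1 lower, and the groups overlap for PRKAB2 and TSC2.

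The catalytic subunits were the least abundant part of AMPK and rose. PRKAA1 (ENSG00000132356, GRCh38 chromosome 5, 40759379 to 40798374), which encodes alpha1, had 250 and 325 counts in the shGlud1 libraries and 93 and 156 in the shNT libraries. Its level was 12.5 and 14.1 CPM in shGlud1 cells, against 6.81 and 10.2 CPM in shNT cells. Both shGlud1 libraries were above both shNT libraries, and the shNT libraries differed more from each other than the shGlud1 libraries did. The log2 fold change came to 0.64 (SE 0.20, adjusted p = 0.00259), but it was no longer called with shNT replicate 1 left out (0.38, adjusted p = 0.217), in DESeq2 (0.62, adjusted p = 0.0585) and with a trend on transcript length removed (0.38, adjusted p = 0.0701). PRKAA2 (ENSG00000162409, chromosome 1, 56645322 to 56715335), which encodes alpha2, the form prominent in muscle, had only 45 and 66 counts in the shGlud1 libraries and 22 and 13 in the shNT libraries. That is 2.25 and 2.86 CPM in shGlud1 cells and 1.61 and 0.849 CPM in shNT cells. The groups did not overlap, yet the shNT values lay far apart for so low a gene. Its log2 fold change of 1.07 (SE 0.40, adjusted p = 0.0133) was lost without shGlud1 replicate 2 (0.88, adjusted p = 0.163), without shNT replicate 2 (0.67, adjusted p = 0.233), in DESeq2 (1.04, adjusted p = 0.161) and with the length trend removed (0.53, adjusted p = 0.246).

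The beta subunits parted. PRKAB1 (ENSG00000111725, chromosome 12, 119667753 to 119681630), which encodes beta1, had 263 and 374 counts in the shGlud1 libraries and 423 and 436 in the shNT libraries. It stood at 13.1 and 16.2 CPM in shGlud1 cells and at 31.0 and 28.5 CPM in shNT cells. Each shGlud1 library was well below each shNT library, and the gap was wider than the spread within either group. Its log2 fold change was thus -1.01 (SE 0.16, adjusted p = 7.15e-10), a level 2.02-fold lower, and PRKAB1 was called as fallen in all 15 alternative fits, with log2 fold changes between -1.17 and -0.49. PRKAB2 (ENSG00000131791, chromosome 1, 147155106 to 147172550), which encodes beta2, had 216 and 319 counts in the shGlud1 libraries and 149 and 216 in the shNT libraries, or 10.8 and 13.8 CPM against 10.9 and 14.1 CPM. The groups overlapped almost completely. Its log2 fold change was -0.02 with a 95% interval of -0.39 to 0.34 (adjusted p = 0.923), and scaled by total counts alone it was called as higher (0.50, adjusted p = 0.0354).

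Of the gamma subunits, PRKAG1 (ENSG00000181929, chromosome 12, 49002274 to 49018825), which encodes gamma1, was the most abundant of the 10 genes. Its expected counts were 2310.39 and 2753.92 in the shGlud1 libraries and 2370.94 and 2613.55 in the shNT libraries. With TMM factors this was 115 and 119 CPM in shGlud1 cells and 173 and 171 CPM in shNT cells. The groups were therefore far apart after TMM scaling and overlapped in counts. The fitted log2 fold change was -0.55 (SE 0.13, adjusted p = 8.28e-05), against -0.03 by total counts (adjusted p = 0.817) and -0.04 with the length trend removed (adjusted p = 0.787). It was the only gene of the 10 with counts that were not whole, and 532 of its exon bases are shared with the antisense gene DDN-AS1, which had 15 to 55 counts. PRKAG2 (ENSG00000106617, chromosome 7, 151556111 to 151877125), which encodes gamma2, a subunit mutated in an inherited heart muscle disease, had 511 and 688 counts in the shGlud1 libraries and 278 and 365 in the shNT libraries. It was at 25.5 and 29.8 CPM in shGlud1 cells and at 20.3 and 23.8 CPM in shNT cells. Both shGlud1 values were above both shNT values by a small margin. Its log2 fold change of 0.32 (SE 0.15, 95% interval 0.03 to 0.62) just missed the threshold (adjusted p = 0.0504), and 7 of the 15 alternative fits called it as risen. The remaining gamma gene, PRKAG3, a form of skeletal muscle, had 0 counts in every library.

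Transcript levels can be set beside each other only per length, here CPM per kilobase of the longest protein-coding transcript in GENCODE 29. On that scale PRKAG1 led the 10 genes in both groups, at 69.1 ± 1.69 in shGlud1 cells and 101 ± 1.19 in shNT cells, and PRKAA2 was last, at 0.273 ± 0.0465 and 0.132 ± 0.0576. In shGlud1 cells PRKAG2 (8.37), RPTOR (6.94), MTOR (6.19), PRKAB1 (5.62), TSC2 (3.79), PRKAA1 (2.61), TSC1 (2.60) and PRKAB2 (2.27) followed in between. Among these the ranges of MTOR and PRKAB1, of PRKAA1 and TSC1 and of TSC1 and PRKAB2 overlapped, so their order is not settled. In shNT cells the order was PRKAB1 (11.4), PRKAG2 (6.68), RPTOR (4.34), TSC2 (4.27), MTOR (3.12), PRKAB2 (2.31), PRKAA1 (1.67) and TSC1 (1.29), with overlap for RPTOR and TSC2.

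Within each library, where library scaling cancels, alpha transcripts made up 3.16% and 3.37% of the AMPK subunit transcripts per length in the shGlud1 libraries, against 1.22% and 1.70% in the shNT libraries. The alpha share was thus higher in both shGlud1 libraries. Beta transcripts made up 8.23% and 9.62% in the shGlud1 libraries, against 11.2% and 11% in the shNT libraries. Gamma transcripts made up 88.6% and 87% in shGlud1 and 87.6% and 87.3% in shNT libraries, and there the groups overlapped. Within the beta pair, PRKAB2 gave 28.4% and 29.1% of the transcripts per length in the shGlud1 libraries and 14.5% and 19.3% in the shNT libraries. Within the gamma pair, PRKAG2 gave 10.2% and 11.4% in the shGlud1 libraries and 5.68% and 6.70% in the shNT libraries. PRKAA2 gave 8.92% and 9.95% of the alpha transcripts in the shGlud1 libraries and 11.4% and 4.34% in the shNT libraries, so the alpha pair overlapped. These shares rest on the annotated lengths, and which isoforms the cells used was not measured. Library scaling cancels in them, but a trend of fold change on transcript length, described below, does not. That trend, shGlud1 minus shNT in log2, was 0.26 for PRKAA1, 0.54 for PRKAA2, 0.11 for PRKAB1 and 0.30 for PRKAB2. It was -0.51 for PRKAG1 and -0.02 for PRKAG2. The PRKAB1 value was read at 4019 nt, a non-coding transcript, whereas the shares use its protein-coding transcript of 2610 nt. The size and sign of the trend at 2610 nt were not tested. The part of the trend in the shares was not tested.

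**Figure D2:**
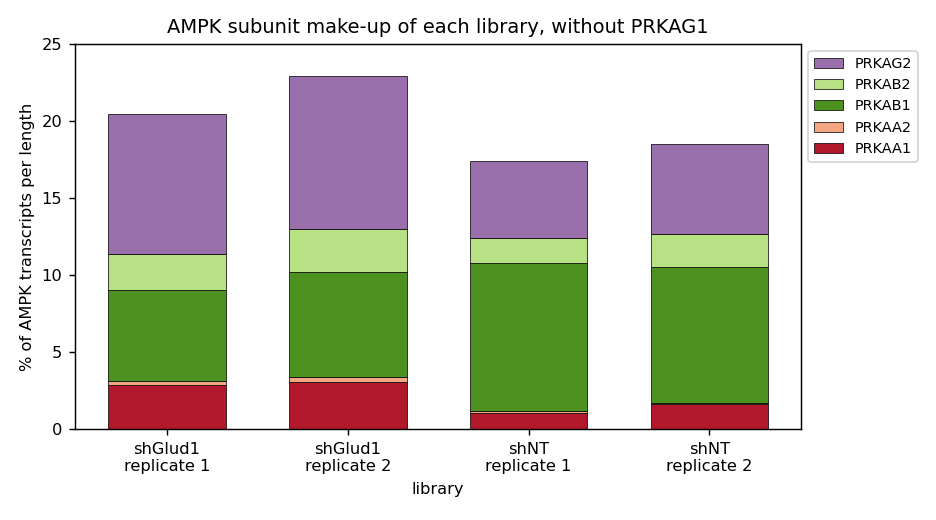
Percent of AMPK subunit transcripts per length (counts divided by the longest protein-coding transcript) from each subunit gene other than PRKAG1 in each of the 4 libraries; PRKAG1 makes up the rest to 100%, between 77.1% and 82.6%. The PRKAA1 segment is 2.88% and 3.04% in the shGlud1 libraries and 1.08% and 1.62% in the shNT libraries, and the PRKAB1 segment is 5.90% and 6.82% against 9.59% and 8.85%.

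Of mTORC1, MTOR and RPTOR were higher, while MLST8, a further subunit given below, was lower. MTOR (ENSG00000198793, chromosome 1, 11106535 to 11262507), the kinase, had 1035 and 1285 counts in the shGlud1 libraries and 406 and 375 in the shNT libraries. This was 51.7 and 55.7 CPM in shGlud1 cells and 29.7 and 24.5 CPM in shNT cells. The groups were separated by more than the spread within either. The level was 1.98-fold higher, a log2 fold change of 0.99 (SE 0.14, adjusted p = 8.12e-12), and the call held in all 15 alternative fits, at between 0.46 and 1.51. RPTOR (ENSG00000141564, chromosome 17, 80544819 to 80966371), the scaffold that presents substrates to MTOR, had 925 and 986 counts in the shGlud1 libraries and 398 and 406 in the shNT libraries. Its level was 46.2 and 42.7 CPM in shGlud1 cells and 29.1 and 26.5 CPM in shNT cells. Again neither shGlud1 library came near the shNT range. RPTOR rose by 0.68 on the log2 scale (SE 0.14, adjusted p = 4.56e-06), which ended as a call with the length trend removed (0.26, adjusted p = 0.0881).

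Of the TSC complex, TSC1 was called and TSC2 was not. TSC1 (ENSG00000165699, chromosome 9, 132891348 to 132946874), which encodes hamartin, the stabilising subunit, had 433 and 548 counts in the shGlud1 libraries and 150 and 177 in the shNT libraries. It was at 21.6 and 23.8 CPM in shGlud1 cells and at 11 and 11.6 CPM in shNT cells. The replicates of each group lay close together and the groups far apart. The log2 fold change of 1.01 (SE 0.17, adjusted p = 2.75e-08) was called in all 15 alternative fits, at between 0.49 and 1.53. TSC2 (ENSG00000103197, chromosome 16, 2047465 to 2089487), which encodes tuberin, the subunit that acts on RHEB, had 543 and 485 counts in the shGlud1 libraries and 385 and 399 in the shNT libraries. At 27.1 and 21.0 CPM in shGlud1 cells and 28.2 and 26.0 CPM in shNT cells, the groups overlapped. Its log2 fold change was -0.17 (95% interval -0.47 to 0.12, adjusted p = 0.311), and it was called as fallen with the length trend removed (-0.58, adjusted p = 0.000255) and without shGlud1 replicate 1 (-0.38, adjusted p = 0.0336). Its exons share 778 bases with PKD1 and 402 with NTHL1, both on the other strand, and the library kit does not mark strand. PKD1 had 1064 and 1000 counts in the shGlud1 libraries and 447 and 521 in the shNT libraries, and the part of such reads in the TSC2 counts was not tested.

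Ratios of partner genes within a library do not depend on library scaling. The log2 ratio of TSC1 to TSC2 counts was -0.33 and 0.18 in the shGlud1 libraries and -1.36 and -1.17 in the shNT libraries, a difference of 1.19. For PRKAB2 over PRKAB1 it was -0.28 and -0.23 in the shGlud1 libraries and -1.51 and -1.01 in the shNT libraries, a difference of 1.00. For PRKAG2 over PRKAG1 it was -2.18 and -2.0 in the shGlud1 libraries and -3.09 and -2.84 in the shNT libraries, a difference of 0.88. In these 3 pairs both shGlud1 ratios were above both shNT ratios. The RPTOR to MTOR ratio was -0.16 and -0.38 in the shGlud1 libraries and -0.03 and 0.11 in the shNT libraries, a difference of -0.32 without overlap. The PRKAA2 to PRKAA1 ratio was -2.47 and -2.30 in the shGlud1 libraries and -2.08 and -3.58 in the shNT libraries, which overlapped. With 2 libraries against 2 the two-sided exact permutation test cannot give a p below 0.333, which is what the 4 pairs without overlap reached, while the alpha pair had p = 1.0. With the length trend removed the differences were 1.08 for TSC1 over TSC2, 0.81 for the beta pair, 0.39 for the gamma pair, -0.21 for RPTOR over MTOR and 0.17 for the alpha pair. The beta value takes the trend of PRKAB1 at 4019 nt, a non-coding transcript. The longest protein-coding transcript of PRKAB1 has 2610 nt, and the difference on that length was not tested.

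**Figure D3:**
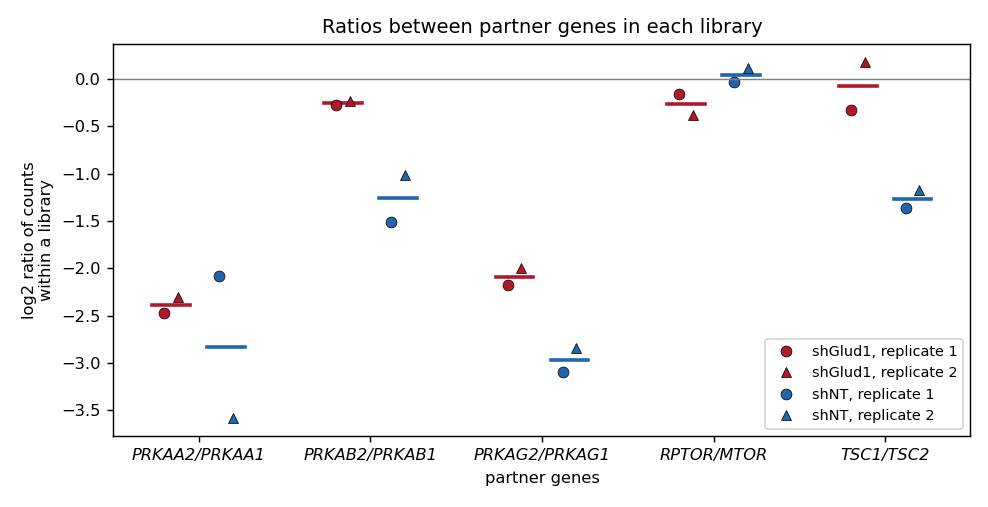
Log2 ratio of counts between partner genes within each library, shGlud1 in red and shNT in blue, with bars at group means. The shGlud1 libraries lie above the shNT libraries for PRKAB2/PRKAB1, PRKAG2/PRKAG1 and TSC1/TSC2 and below them for RPTOR/MTOR, and the PRKAA2/PRKAA1 ratios overlap.

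The fold changes followed transcript length across the transcriptome, with a Spearman correlation of 0.447 over 14266 genes of these same 4 libraries. The 10 genes lay along that trend unevenly. At the lengths of PRKAA2 (9347 nt), TSC1 (8715 nt) and MTOR (8677 nt), the smooth trend alone amounted to a log2 difference of 0.54, 0.52 and 0.52. It was 0.41 for RPTOR (6408 nt) and for TSC2 (6344 nt), 0.30 for PRKAB2 (5417 nt) and 0.26 for PRKAA1 (5088 nt). At the other end it was -0.51 for PRKAG1 (1699 nt), which is about the size of that gene's own fold change. It was small for PRKAB1 (4019 nt, a non-coding transcript, 0.11) and PRKAG2 (3305 nt, -0.02). The longest protein-coding transcript of PRKAB1 has 2610 nt, and the trend at that length was not tested. With the trend removed, MTOR (0.46, adjusted p = 0.00157), TSC1 (0.49, adjusted p = 0.00801) and PRKAG2 (0.34, adjusted p = 0.0379) were called as risen, and PRKAB1 (-1.12) and TSC2 (-0.58) as fallen. Thus 3 rose and 2 fell, where 55.9% of genes were called, 31.6% as risen and 24.3% as fallen.

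**Figure D4:**
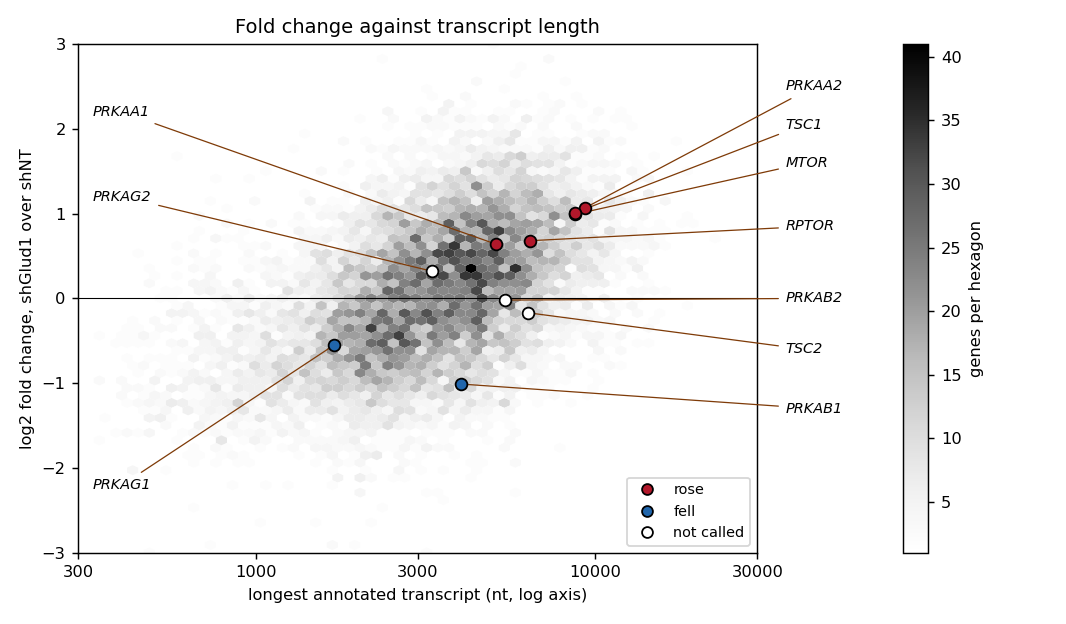
Log2 fold change (shGlud1 over shNT) against the longest annotated transcript in nt (log axis) for 14089 genes, in grey by number of genes per hexagon, with the 10 named genes as circles, red where risen, blue where fallen and white where not called; 177 genes lie outside the axes. MTOR, TSC1 and PRKAA2 are the longest of the 10 and lie near 1, PRKAG1 is the shortest at -0.55, and PRKAB1 lies lowest at -1.01.

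The scale of reference mattered as well. By total counts alone the median log2 fold change of all genes was 0.57, against 0.06 with TMM factors. Of the 10 genes 7 then rose and 1, PRKAB1, fell (-0.49, adjusted p = 0.013), where 65.6% of genes were called, 51.9% as risen and 13.7% as fallen. Relative to those medians the changes were almost equal, at 0.94 by total counts and 0.93 by TMM for MTOR and at -1.06 and -1.07 for PRKAB1. The scalings differ by a single factor per library, which shifts all genes by about the same amount. That near equality was therefore fixed in advance and tests nothing.

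**Figure D5:**
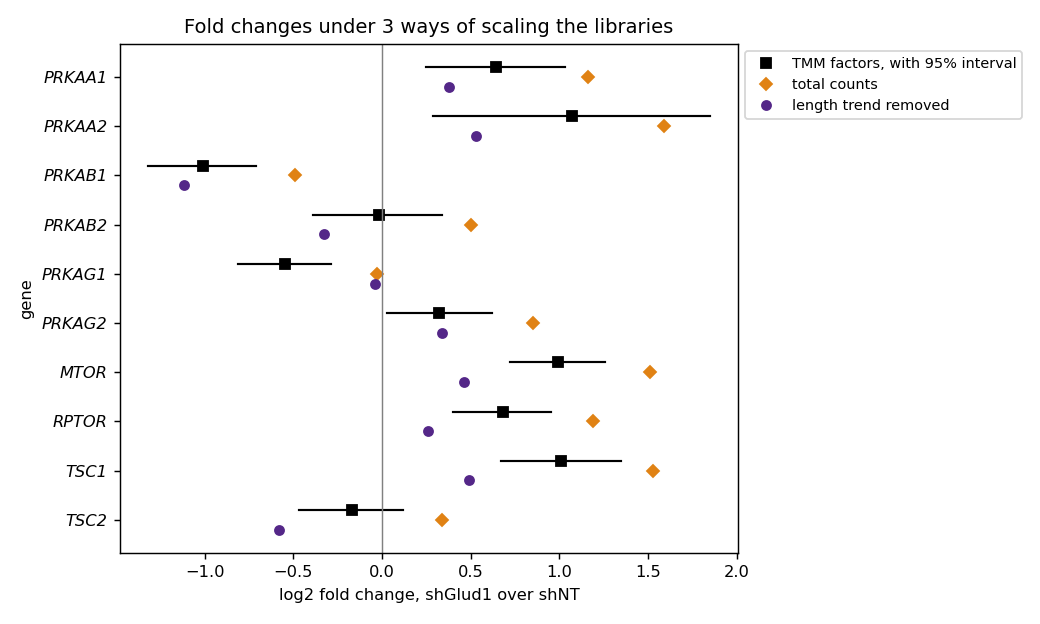
Log2 fold change of the 10 genes, shGlud1 over shNT, with TMM factors and their 95% interval (black squares and lines), by total counts (orange diamonds) and with the length trend removed (purple circles). PRKAB1 lies below 0 and MTOR, RPTOR, TSC1, PRKAA1, PRKAA2 and PRKAG2 above 0 in all 3, whereas PRKAB2 and TSC2 change sign and PRKAG1 lies at -0.03 and -0.04 in the last 2.

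Other genes of the pathway were counted in 10 lists of 118 genes, of which 114 were tested, 48 rose and 25 fell, at a median of 0.30. These shares can be read against the 31.9% and 29.1% of all genes. Of the remaining subunits of AMPK and mTORC1 with RHEB, 4 of 6 tested fell and 0 rose (1 rose and 1 fell by total counts, 1 and 2 with the length trend removed). Without shNT replicate 1, and likewise without shNT replicate 2, 2 of them fell. MLST8, the small shared subunit of both mTOR complexes, was at 45.2 ± 4.44 CPM in shGlud1 cells and 118 ± 0.641 CPM in shNT cells (-1.38, adjusted p = 5.07e-24). AKT1S1, which encodes the mTORC1 inhibitor PRAS40, fell by 0.43, although by total counts it stood at 0.08 (adjusted p = 0.53) and without shNT replicate 2 it was no longer called (-0.36, adjusted p = 0.114). The mTORC1 subunits therefore did not move together, with MTOR and RPTOR higher and MLST8 (2116 nt) lower. With the length trend removed MLST8 was still called as fallen (-1.0, adjusted p = 4.57e-15) and MTOR as risen (0.46). RPTOR was not called in that fit (0.26, adjusted p = 0.0881).

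Upstream of AMPK, 4 of 7 genes of its activating kinases and their partners rose and 0 fell. The counts were 7 and 0 by total counts and 3 and 0 with the length trend removed, and the calls differed without shGlud1 replicate 1. STRADB and STRADA, pseudokinase partners of the kinase LKB1, rose by 1.32 (adjusted p = 1.84e-12) and 0.81 (adjusted p = 7.21e-06). STK11, the gene of LKB1 itself, was not called (-0.18, adjusted p = 0.227), though by total counts it rose (0.34, adjusted p = 0.00737). CAMKK1 was not called (0.27, adjusted p = 0.0922). CAMKK2 rose by 0.53 (adjusted p = 0.000257) but was not called with the length trend removed (0.20, adjusted p = 0.186). Of 11 AMPK-related kinases tested, 5 rose, among them the microtubule affinity-regulating kinases MARK3 (0.91) and MARK4 (0.75), and 1 fell (9 and 1 by total counts, 4 and 1 with the length trend removed). In DESeq2, without shGlud1 replicate 2, without shNT replicate 1 and with the trend on the median transcript removed, 3 rose. The gene that fell was SIK1, a salt-inducible kinase, at 17.9 ± 0.875 CPM in shGlud1 cells and 71.6 ± 1.6 CPM in shNT cells (-2.0, adjusted p = 1.29e-43). Among 19 genes for AMPK substrates 12 rose and 1 fell (18 and 0 by total counts, 10 and 1 with the length trend removed), at a median of 0.62. That median was 1.14 by total counts and 0.41 with the length trend removed. TBC1D1, a Rab GTPase regulator of glucose transporter traffic, rose by 1.11 and PIK3C3, the lipid kinase of autophagy, by 1.10, while CRTC2, a CREB coactivator, fell by 0.77. With the length trend removed TBC1D1 was at 0.77, PIK3C3 at 0.56 and CRTC2 at -0.56. By total counts CRTC2 was no longer called (-0.25, adjusted p = 0.071).

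The amino acid arm of mTORC1 was mixed. Of 13 genes for the Rag GTPases, Ragulator and folliculin, 7 fell and 3 rose, at a median of -0.96 (6 and 3 by total counts, 8 and 3 with the length trend removed). That median was -0.44 by total counts and -0.37 with the length trend removed, where those of all genes were 0.57 and 0.1. All 5 Ragulator genes, LAMTOR1 to LAMTOR5, which anchor the Rag GTPases to the lysosome, were among those that fell, and they were also called as fallen by total counts and with the length trend removed. LAMTOR4 was at 185 ± 45.1 CPM in shGlud1 cells and 418 ± 1.63 CPM in shNT cells (-1.18, adjusted p = 1.38e-15). Its transcript is short (730 nt), and with the length trend removed its log2 fold change was -0.37 (adjusted p = 0.00313). FLCN, the folliculin gene, was at 30.7 ± 0.398 CPM in shGlud1 cells and 122 ± 3.53 CPM in shNT cells (-2.0, adjusted p = 4.18e-47). By contrast RRAGD and RRAGA, both Rag GTPase genes, rose by 1.19 (adjusted p = 1.66e-11) and 1.12 (adjusted p = 6.59e-15). In the GATOR and KICSTOR complexes, which relay amino acid levels to the Rag GTPases, 4 of 12 rose and 5 fell (6 and 0 by total counts, 4 and 4 with the length trend removed). KICS2 (1.19), of KICSTOR, rose, while KPTN (-0.77), also of KICSTOR, and NPRL2 (-0.75), of GATOR1, fell. By total counts neither KPTN (-0.26, adjusted p = 0.248) nor NPRL2 (-0.23, adjusted p = 0.137) was called, and KPTN was not with the length trend removed (-0.27, adjusted p = 0.17).

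Genes that restrain mTORC1 in stress or sense amino acids also split, with 3 of 7 tested risen and 2 fallen (4 and 2 both by total counts and with the length trend removed). SESN2, the leucine-sensing sestrin induced by stress, was at 49.9 ± 2.09 CPM in shGlud1 cells and 237 ± 4.82 CPM in shNT cells (-2.24, adjusted p = 1.01e-56). DDIT4, which encodes REDD1, an inhibitor that works through the TSC complex, was at 212 ± 2.64 CPM in shGlud1 cells and 403 ± 50.3 CPM in shNT cells (-0.93, adjusted p = 3.6e-10). CASTOR1, an arginine sensor, rose by 1.86 (adjusted p = 9.2e-13) and SESN1 by 1.18 (adjusted p = 8.5e-05), with shNT means of 2.74 and 2.48 CPM.

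In the PI3K and AKT input 10 of 15 genes rose and 0 fell, at a median of 0.84 (15 and 0 by total counts, 6 and 2 with the length trend removed). That median was 1.37 by total counts and 0.32 with the length trend removed. In DESeq2 5 rose, and genes were also called as fallen without shGlud1 replicate 1 (2 genes), with RLE factors (1 gene) and with the trend on the median transcript removed (4 genes). The insulin receptor substrate gene IRS1 was at 18.4 ± 1.67 CPM in shGlud1 cells and 4.86 ± 0.974 CPM in shNT cells (1.91, adjusted p = 2.54e-19), and PIK3CD, a catalytic PI3K subunit, rose by 1.22. With the length trend removed IRS1 was at 1.37 and PIK3CD at 0.91. For mTORC2 and mTOR assembly 2 of 6 genes tested rose and 1 fell (3 and 1 by total counts, 3 and 2 with the length trend removed), with 1 risen when either shNT library was left out. TTI1 (1.38) and TELO2 (-0.98), partners in the chaperone complex that assembles mTOR, changed in opposite directions, and MAPKAP1, which encodes the mTORC2 subunit SIN1, rose by 0.36. That last call ended without shNT replicate 1 (adjusted p = 0.0785) or shNT replicate 2 (adjusted p = 0.222). Downstream of mTORC1 5 of 18 rose and 4 fell (12 and 3 by total counts, 4 and 6 with the length trend removed). EIF4EBP2, a translation repressor, rose by 1.46 and LARP1, which binds mRNAs of the translation machinery, by 0.88. ATG101, an autophagy initiation factor, fell by 1.06 and MAF1, the repressor of RNA polymerase III, by 0.87. With the length trend removed EIF4EBP2 was at 0.98, LARP1 at 0.45, ATG101 at -0.48 and MAF1 at -0.39.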

How the data were processed

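Polyadenylated RNA of U87 cells was measured by paired-end sequencing with reads of 150 nt and a TruSeq V2 kit, per the labels' protocols. The authors deposited expected counts, estimated read counts per gene, and 20.1% of the values above 0 had decimals. The submitters' processing notes name Bowtie 0.12.2 and a mouse build, mm8, yet all 57820 rows carry human gene IDs, so the build is uncertain. The counting program is not given in the sources used here.

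Counts were rounded. In edgeR 4.0.16 (R 4.3.3) genes were kept by filterByExpr (minimum count 10), scaled by TMM (1.15 and 1.24 for shGlud1, 0.826 and 0.845 for shNT), and compared over all 4 libraries by the quasi-likelihood test (robust, unblocked). Benjamini-Hochberg adjustment ran over 14616 genes, and SE is the absolute log2 fold change over the root of F. The scripts were tested on simulated data. Intervals cover the fit only, and PCR copies are not independent molecules. GENCODE 29 (GRCh38), matched by Ensembl ID, gave positions and lengths, for 97.6% of tested genes. The length trend was a lowess curve (span 0.3) of each library's log2 CPM deviation on the longest transcript, centred on its median and taken out as an offset.

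The genes and lists were chosen with earlier results of these data known. Named genes are GLUD1, the 10 genes, and of each list up to 2 risen and 2 fallen by lowest p, of which 1 is not reported here. LAMTOR1, LAMTOR2, LAMTOR3, LAMTOR5, PKD1, NTHL1, DEPTOR, TBC1D7, RHEB, RHEBL1, STK11, CAMKK1 and CAMKK2 were added after their values were seen. Symbols in the table were older for 5 list genes (C12orf66 for KICS2, GATSL3 for CASTOR1). Alternatives were DESeq2 1.42.0, limma-voom (3.58.1), upper-quartile and RLE factors, no filter, total counts, 1 CPM in 2 libraries, the replicate block, each library left out, and 3 fits with a length trend removed. That on the median transcript was chosen after the data were seen. Tables and figures used Python 3.11.15, numpy 2.4.6, pandas 2.3.3, scipy 1.17.1 and matplotlib 3.10.9.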

Additional observations from a re-analysis of the deposited data

How the results depend on the processing

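PRKAB1, MTOR and TSC1 kept their direction and their call in all 15 alternatives. Among all genes 7590 rose and 2001 fell by total counts, against 4662 and 4257 with TMM factors. Of the 10 genes 3 rose in DESeq2 and 3 with the length trend removed, against 5, and 1 fell by total counts, against 2. Among all genes 3397 rose in DESeq2 and 4613 with the length trend removed, against 4662. PRKAB2 was at 0.50 by total counts and at 0.03 with no filter, and between -0.21 and 0.17 when each library was left out. TSC2 was at 0.34 by total counts and between -0.38 and 0.01 with a library left out, and AKT1S1 was at 0.08 by total counts. The PRKAA2 to PRKAA1 difference lay between -0.31 and 1.2 with a library left out, the lowest being without shNT replicate 2, and the PRKAG2 to PRKAG1 difference was 0.39 with the length trend removed. The cause was not tested. The calls among the 10 genes also differed with a library left out, where a group held a single library. With the length trend on the median transcript removed, PRKAA2 was at 0.29 (adjusted p = 0.552), PRKAG1 at -0.48 (adjusted p = 0.000707) and RPTOR at 0.32 (adjusted p = 0.0379). In that fit PRKAA1 was called, at 0.76 (adjusted p = 0.000198), and PRKAG2 was not, at 0.30 (adjusted p = 0.0758). Both calls were the reverse with the trend on the longest transcript removed.

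The replicate numbers are not stated to pair libraries, and deviations of same-numbered libraries had a correlation of 0.041. With the replicate number as a block 9046 genes were called, against 8919, and 8 of the 10 genes, PRKAG2 in addition (0.33, adjusted p = 0.0298). With the block and the length trend removed, 4 of the 10 rose and 2 fell, with PRKAA1 at 0.40 (adjusted p = 0.0408). Of all genes 4697 rose and 3616 fell in that fit. PRKAA2 had 13 to 66 counts a library, the fewest of the 10 genes.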
